A study of Mus musculus with 12 samples.

Results

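The subject is the effect of Myb that depends on the natural killer (NK) cell line: for each gene, the change with a Myb vector in KY-2 minus the change in KY-1. This difference of 2 differences is called the interaction here, and it was tested alone, on all 12 arrays of the series, which were assigned to line and vector by their titles. Both lines, KY-1 and KY-2, came from mouse and carry the p53KO genotype, so every group lacks p53. Cells were grown in cRPMI with human IL-15 at 200 U/mL. They were transduced with GFP (the control vector) or with GFP-P2A-FLAG-Myb, in which a P2A peptide separates GFP from FLAG-tagged Myb, and the GFP+ cells were sorted. For KY-1 there were 3 arrays with GFP and 4 with Myb, against 2 and 3 for KY-2. Each line is a single cell line, so a difference between them belongs to this pair. The promoter that drives the vector is not given in the sources used here. The series stems from a study of microRNA-15/16 and Myb in NK cell maturation.

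Values are log2 levels, on which 1 unit is a doubling. Array medians lay between 5.31 and 5.42, and no detection calls came with the values, so a level under 6 is called low below, as a working bound. Among the KY-1 arrays, GFP 1 and 2 and Myb 3 and 4 differed with robust SDs of 0.0433 to 0.0469, against 0.102 to 0.172 for all other pairs within a group. The mean of each of these pairs served as 1 replicate, which left 2 GFP and 3 Myb replicates in each line. The labels do not tell whether replicates came from different cultures. The p-values therefore reflect the scatter among these arrays alone, part or all of which may be technical. Of 16 markers that define NK cells, 3 of which had a called interaction (Ncr1 above 0, Prf1 and Gzma below), 15 had a mean level of at least 6 in each group. The exceptions were Eomes in KY-1 (4.86 ± 0.19 with GFP, SD, n = 2) and the NKp46 gene Ncr1 in KY-2 (5.43 ± 0.50, SD, n = 2).

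Myb is a DNA-binding transcription factor of blood progenitors that keeps them dividing and immature, and its level normally drops as blood cells mature. In lymphocytes it is held down after transcription by microRNAs, among them microRNA-15/16. NK cells kill target cells with granzymes and perforin and secrete cytokines such as interferon gamma. They read their targets through sets of activating and inhibitory receptors that change as the cell matures.

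Of 19938 genes tested, 168 (0.843%) had an interaction at a limma adjusted p under 0.05. It was above 0 for 92 genes (0.461%), where the change was more positive in KY-2, and below 0 for 76 (0.381%). The called sizes started at 0.53 log2, with a median of 1.01 (a median SE of 0.15 over all genes), and the median over all genes was 0.01. KY-2 had the larger estimated change for 114 of the 168, against 10284 of all 19938 genes. By the tests of the single lines in the same fit, which call 1.22% of genes in KY-1 and 2.83% in KY-2, 97 of the 168 were called in KY-2 only and 42 in KY-1 only. A further 14 were called in both lines in the same direction, 9 in both in opposite directions and 6 in neither. These line tests use the same arrays as the interaction and only describe which line moved. The total was 427 when no arrays were averaged, 362 with an intensity trend in the variance prior, 293 among genes with a mean above 6, and 29 for differences beyond 1.5-fold. It was 109 without KY-1 GFP replicate 3 and 88 without KY-2 GFP replicate 1.

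**Figure D1:**
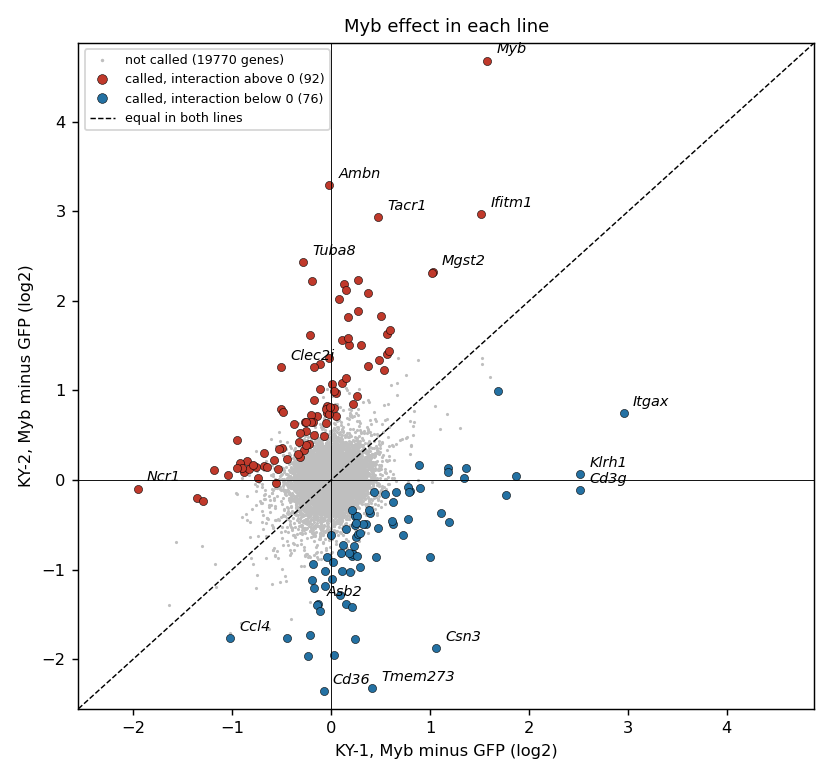
Each point is a gene, with its Myb minus GFP difference in KY-1 on the horizontal axis and in KY-2 on the vertical axis, both in log2. Red points (92) have a called interaction above 0 and blue points (76) a called interaction below 0. They lie away from the dashed line of equal change, mostly along 1 axis: 97 genes were called in KY-2 only and 42 in KY-1 only.

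Myb itself (probe set 10368199) had the interaction with the smallest p. It read 7.96, 7.92 and 8.04 on the KY-1 GFP arrays and 9.59, 9.57, 9.55 and 9.54 on the KY-1 Myb arrays. In KY-2 the GFP arrays read 5.0 and 5.10 and the Myb arrays 9.80, 9.67 and 9.75. The vectors did not overlap in either line, as labelled, and both lines ended near the same level. Full separation of GFP from Myb levels is common in these data. It was seen in 19% of all 19938 genes in KY-1 and in 31% in KY-2. Here and below it therefore only describes the arrays and does not by itself set a gene apart. The interaction was 3.11 ± 0.11 (SE, limma adjusted p = 3.84e-07), made of a rise of 1.58 in KY-1 and of 4.69 in KY-2. With GFP KY-2 stood 2.94 below KY-1, and with the Myb vector it stood 0.17 above it. The probe set does not separate the cell's own transcript from that of the vector. The step in Myb level thus differed between the lines for every gene described here, and its part in the other interactions was not tested.

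The starting level, taken as the level with GFP, was then set beside the interaction. Over all genes the median distance between the lines with GFP was 0.19 log2, and over the 168 it was 1.23. Of the 16488 genes whose GFP levels lay within 0.5 of each other (1.41-fold), 33 or 0.2% had a called interaction. The share was 1.22% for gaps of 0.5 to 1, 6.56% for gaps of 1 to 2 and 18.6% for gaps of 2 or more. In all, 106 of the 168 (63.1%) started at least 1 apart. The GFP arrays enter the starting gap and the interaction with opposite signs, so the relation is a description and carries no test. The largest SE of a GFP gap among the 168 was 0.23. Set against the distance between the lines with the Myb vector instead, the shares were 0.265%, 1.6%, 7.93% and 15.5% over the same bins. Called genes thus also ended apart more often than other genes. The interaction is the Myb gap minus the GFP gap, so a called gene needs a gap with at least 1 vector. This relation too is a description and carries no test.

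**Figure D2:**
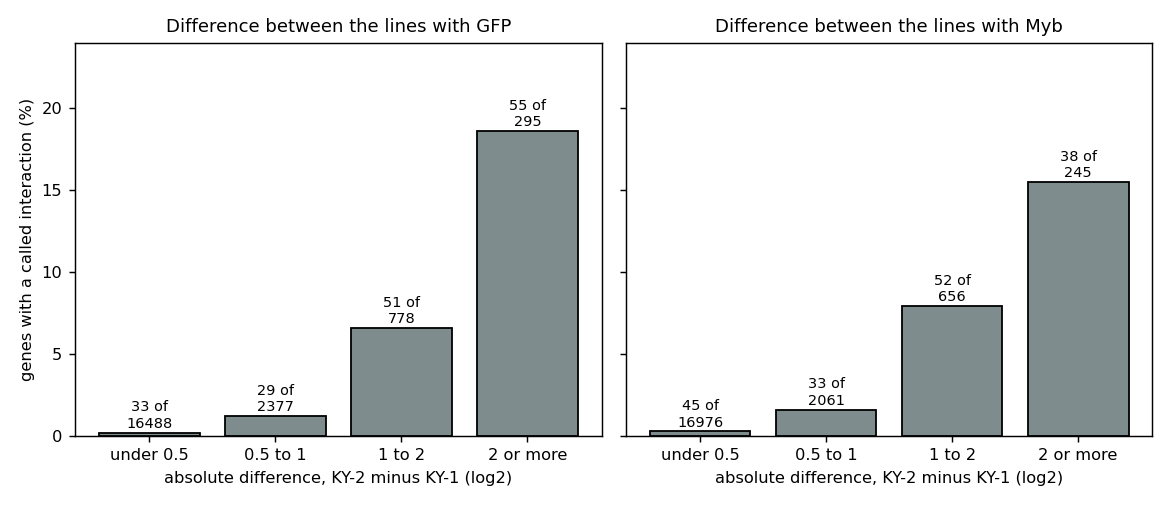
Bars give the percentage of genes with a called interaction by the absolute log2 difference between the lines, with GFP on the left and with the Myb vector on the right, and the numbers are called genes of all genes in a bin. With GFP the percentage goes from 0.2% for gaps under 0.5 to 18.6% for gaps of 2 or more.

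The sign mostly ran opposite to the starting gap. Of the 92 genes with a positive interaction, 63 started higher in KY-1, and of the 76 with a negative interaction, 62 started higher in KY-2. Of all 19938 genes, 11154 started higher in KY-1 and 8784 in KY-2. The GFP arrays enter the gap and the interaction with opposite signs, so opposite signs are favoured by construction and these counts carry no test. How often the signs were opposite over all genes was not counted. The distance between the lines was smaller with Myb than with GFP for 106 of the 168, against 11433 of all 19938 genes, and larger for 62. In the tests between the lines, which call 28.9% of all genes with GFP and 31.6% with Myb, 28 of the 168 differed with GFP only and 27 with Myb only. Both differences were called for 113. Among these the gap kept its sign and narrowed for 72, kept it and widened for 33, and changed sign for 8.

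By level, both GFP means were at least 6 for 72 of the 168, called among 8324 such genes (0.865%, near the 0.843% of all genes). KY-1 alone reached 6 for 21 genes (4.34% of 484 such genes), all with a positive interaction. KY-2 alone reached it for 36 (6.38% of 564), of which 27 were negative. Both lines started under 6 for 39 (0.369% of 10566), of which 31 had an increase as the larger estimated change, 24 in KY-2 and 7 in KY-1.

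**Figure D3:**
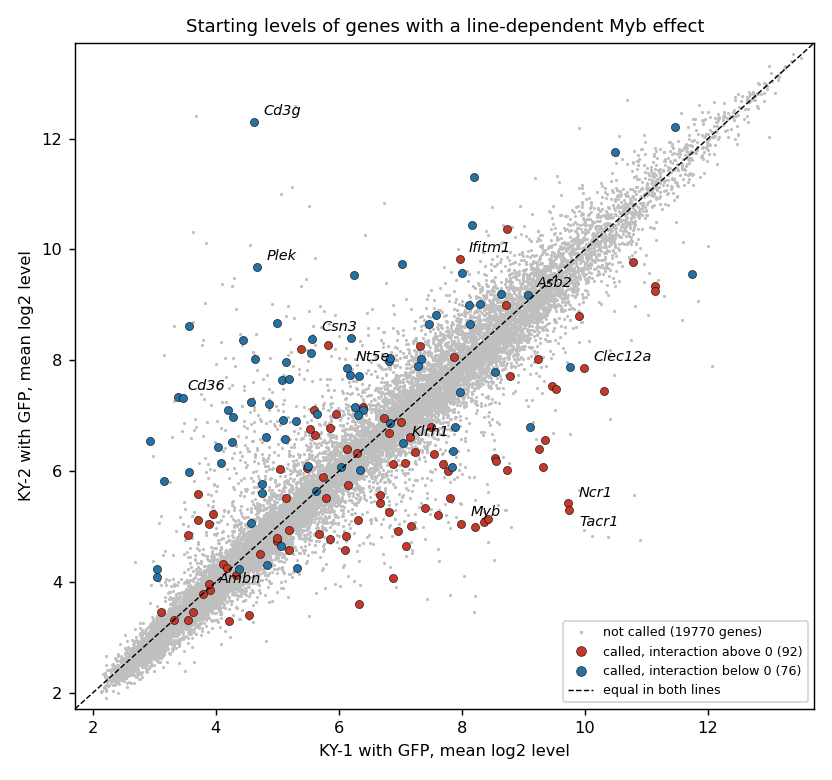
Each point is a gene, placed by its mean log2 level with GFP in KY-1 (horizontal) and KY-2 (vertical), with the dashed line where both are equal. Red points, with a called interaction above 0, lie mostly below the line (63 of 92), and blue points, with one below 0, mostly above it (62 of 76).

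A further description asked where the less responsive line stood at the start. Genes whose lines started within 0.5 of each other were set apart first. The end is the level that the more responsive line reached with Myb. In 103 of the remaining genes (61.3% of the 168) the less responsive line's GFP level lay within 0.5 of that end, or past it. For 33 the lines started within 0.5 of each other, and for 29 the less responsive line started on the side away from the change. For 3 (Myb, Napsa and Tesc, the last 2 named after their values were seen) it lay in between. For small changes the margins around start and end meet, so no start can count as in between. With a margin of 0.3 in place of 0.5 the first 2 counts were 99 and 27, and with a margin of 1 they were 85 and 62. The share already at the end was highest for genes that went down in KY-2, 40 of 48 or 83.3%. It was 58.2% among all genes with a called fall there that was larger than the change in KY-1. In 30 of those 40, KY-1 with GFP was under 6, the low end of the scale. It was 30 of 66 (45.5%) for genes that went up in KY-2, 15 of 28 (53.6%) for KY-1 increases and 18 of 26 (69.2%) for KY-1 decreases. The corresponding shares of all genes called in the line, where its change was the larger, were 43%, 35.6% and 53.1%. Over the alternative settings the share already at the end ran from 51.7% to 68.2%.

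Genes that rose in KY-2 towards a level that KY-1 already had included 3 surface receptors. Tacr1 (probe set 10539244), the substance P receptor, read 9.64, 9.62 and 9.84 with GFP and 10.20, 10.19, 10.20 and 10.25 with Myb in KY-1. In KY-2 it read 5.40 and 5.20 with GFP and 8.29, 8.21 and 8.24 with Myb. The arrays of the 2 vectors were apart in both lines, and the KY-2 Myb arrays still lay below every KY-1 array. The rise was 0.47 in KY-1 and 2.94 in KY-2, and the interaction was 2.47 ± 0.13 (SE, limma adjusted p = 6.33e-06). Clec12a, an inhibitory C-type lectin receptor, closed the gap almost fully: KY-2 went from 7.79 and 7.92 to 9.86, 9.94 and 9.83, while all KY-1 arrays lay between 9.92 and 10.15 (interaction 1.94 ± 0.12). Adgrg3, an adhesion G protein-coupled receptor, went from 6.55 and 6.25 to 8.59, 8.60 and 8.57 in KY-2 and lay at 9.15 to 9.42 in KY-1 (interaction 2.05 ± 0.13). In KY-1 neither Clec12a (0.08) nor Adgrg3 (0.13) was called.

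Other genes rose in KY-2 from a low level that both lines shared. Ambn (probe set 10522946), which encodes the enamel protein ameloblastin, read 3.91, 3.73 and 4.0 with GFP and 3.78, 3.92, 4.03 and 3.91 with Myb in KY-1. In KY-2 it read 3.69 and 4.01 with GFP and 7.03, 7.16 and 7.26 with Myb. All KY-2 Myb arrays stood above the others, which overlapped. The interaction of 3.31 ± 0.16 (SE, limma adjusted p = 5.36e-06) was the highest of all genes, and the lines differed by 0.06 with GFP. Tuba8, a tubulin, went the same way from 4.51 ± 0.06 to 6.94 ± 0.09 in KY-2 (SD, n = 2 and 3; interaction 2.72 ± 0.17). Kap, a kidney androgen-regulated protein, and Prl2c5, a placental hormone of the prolactin family, had interactions of 2.42 ± 0.16 and 1.97 ± 0.15. Prl2c5 has near-identical family members, so its probe set may read several. Sh2d1a, the SAP adaptor that couples SLAM receptors to kinases in NK and T cells, rose in KY-2 from 3.33 and 3.29 to 4.95, 4.80 and 5.06. It stayed low on every array, which leaves its size uncertain (interaction 1.84 ± 0.14).

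In a further set KY-2 started higher and moved further up. Ifitm1, an interferon-inducible membrane protein, rose in both lines, from 7.97 to 9.48 in KY-1 and from 9.83 to 12.79 in KY-2, and no arrays of the vectors overlapped (interaction 1.45 ± 0.12, SE, limma adjusted p = 9.2e-05). A second Ifitm1 probe set, not used in the test, gave 1.51. Emp3, an epithelial membrane protein family member, stood at 8.17 and 8.33 with GFP in KY-2 and at 10.50, 10.52 and 10.44 with Myb, above the 7.26 to 7.81 of all KY-1 arrays (interaction 1.96 ± 0.16). Cxcr4, the receptor of CXCL12 that retains cells in bone marrow, rose by 0.56 in KY-1 and by 1.64 in KY-2 (interaction 1.07 ± 0.16).

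Several falls called in KY-2 only were of genes that KY-1 had at a low level. Cd36 (probe set 10528207), a fatty acid transporter, read 3.40, 3.57 and 3.29 with GFP and 3.40, 3.29, 3.34 and 3.18 with Myb in KY-1. In KY-2 it dropped from 7.4 and 7.26 to 4.82, 5.11 and 4.99. The KY-1 arrays overlapped at the low end of the scale, and the KY-2 vectors were apart. The interaction was -2.28 ± 0.15 (SE, limma adjusted p = 2.59e-05). Crtam, an adhesion receptor of activated killer cells, went from 8.18 and 7.86 to 6.18, 5.98 and 6.03 in KY-2 and lay between 4.56 and 4.80 in KY-1 (interaction -1.99 ± 0.16). Plek, the protein kinase C substrate pleckstrin, went from 9.68 ± 0.21 to 7.71 ± 0.06 in KY-2 (SD, n = 2 and 3) and was at 4.68 with GFP in KY-1 (interaction -1.73 ± 0.14). Gpr174, a receptor of lysophosphatidylserine, fell by 1.78 in KY-2 and was at 3.17 with GFP in KY-1 (interaction -2.02 ± 0.26).

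Only 5 genes went down more in KY-2 although KY-1 started higher: Tmem273, Gzmd, Myh10, Cxcr3 and Shisal2b (the last named after its value was seen). For these a low start in KY-1 was not present. Tmem273, a membrane protein, fell from 7.99 and 7.76 to 5.25, 5.90 and 5.51 in KY-2. In KY-1 it read 9.79, 9.83 and 9.70 with GFP and 10.18, 10.23, 10.08 and 10.11 with Myb. The interaction was -2.74 ± 0.22 (SE, limma adjusted p = 9.2e-05), and the gap between the lines widened from 1.88 to 4.61 in size. Gzmd, a granzyme, went from 6.80 ± 0.02 to 5.33 ± 0.04 in KY-2 (SD, n = 2 and 3), with 9.10 ± 0.14 and 8.99 ± 0.13 in KY-1 (interaction -1.35 ± 0.13). Cxcr3, a chemokine receptor of activated lymphocytes, changed by -0.87 in KY-2 and by -0.04 in KY-1 (interaction -0.82 ± 0.16, limma adjusted p = 0.0383).

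Among the genes called in KY-1 only, Ncr1 and Nt5e moved towards a level that KY-2 already had, while Klrh1 and Mcpt8, given below, moved away from it. Ncr1 (probe set 10549647), the activating NK receptor NKp46, read 9.78, 9.77 and 9.67 with GFP and 7.96, 7.70, 7.64 and 7.61 with Myb in KY-1. In KY-2 it read 5.79 and 5.08 with GFP and 5.39, 5.34 and 5.29 with Myb. The KY-1 vectors were apart, and the KY-2 arrays overlapped at a low level. The interaction was 1.86 ± 0.24 (SE, limma adjusted p = 0.00365). Nt5e, the ectoenzyme CD73 that makes adenosine, rose in KY-1 from 6.25, 5.98 and 6.14 to 7.98, 8.01, 7.95 and 8.0. In KY-2 all arrays lay between 7.71 and 8.04, so the KY-1 Myb arrays met a level that KY-2 had with either vector (interaction -1.82 ± 0.14, limma adjusted p = 7.69e-05).

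Cd3g, a CD3 chain, rose by 2.52 in KY-1, where the GFP arrays spread from 4.16 to 5.27 and the Myb arrays from 6.92 to 7.38. KY-2 stood at 12.13 to 12.33 with both vectors, far above KY-1 (interaction -2.63 ± 0.30). Klrh1, an NK lectin receptor, rose in KY-1 from 7.04 ± 0.04 to 9.56 ± 0.20 (SD, n = 2 and 3) and read 6.4 to 6.69 on the KY-2 arrays (interaction -2.45 ± 0.17). Itgax, the integrin CD11c of dendritic cells and mature NK cells, rose in both lines, by 2.96 in KY-1 and by 0.74 in KY-2 (interaction -2.21 ± 0.22). Of the 14 genes called in both lines in the same direction, Itgax and Napsa were the 2 with the larger rise in KY-1. Mcpt8, a basophil protease, went from 5.32 to 7.08 in KY-1 and was low in KY-2, at 4.25 and 4.09 (interaction -1.93 ± 0.24).

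**Figure D4:**
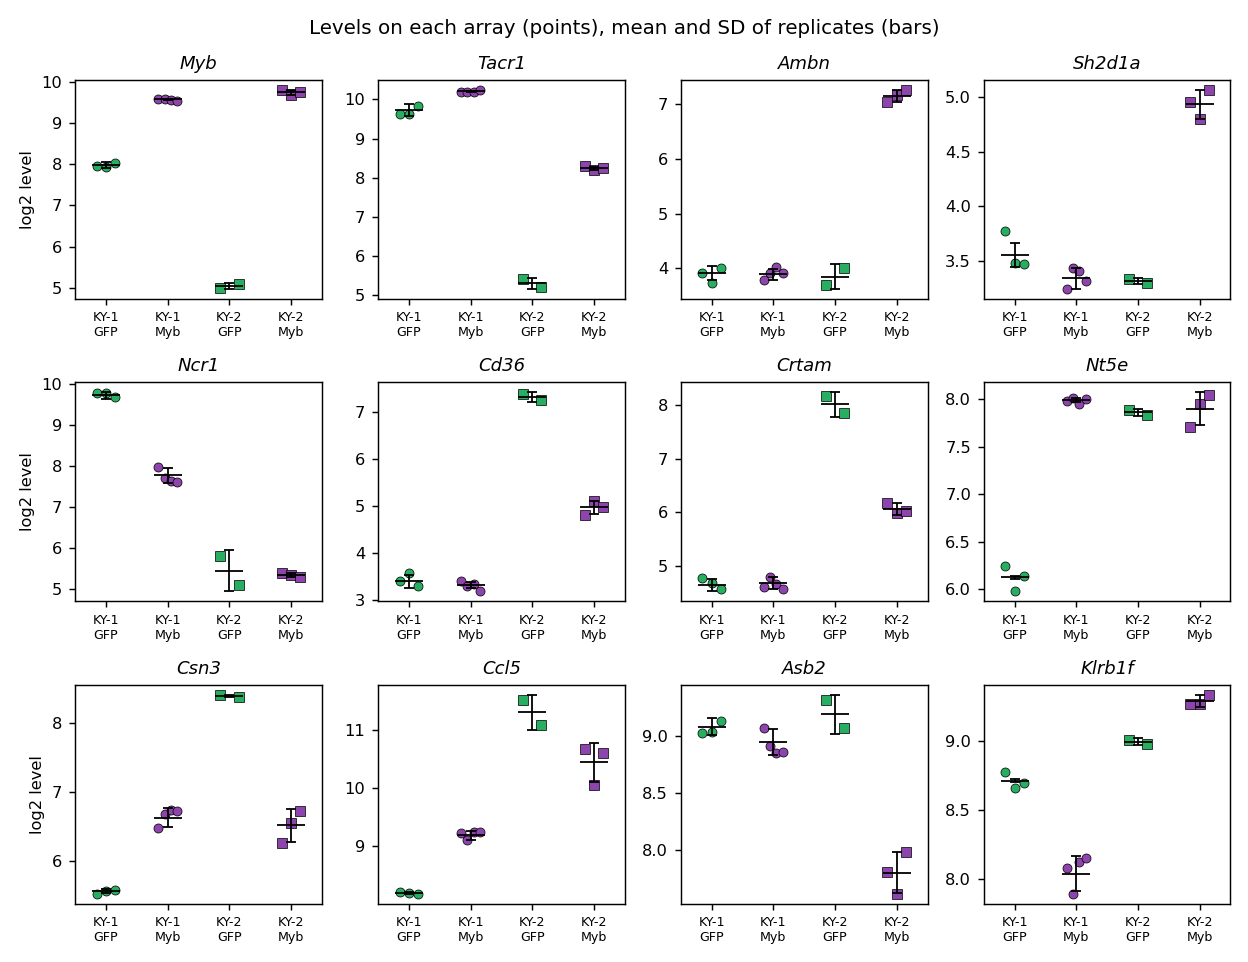
Points are log2 levels on each array for 12 genes, circles for KY-1 and squares for KY-2, green for GFP and purple for Myb. Horizontal bars and whiskers give mean and SD over replicates, with the close KY-1 pairs averaged first. Each panel has its own vertical scale, and the Myb arrays of Csn3 meet near 6.5 from opposite sides.

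Changes in opposite directions were called in 9 genes. The clearest was Csn3 (probe set 10522895), the milk protein kappa-casein. It read 5.53, 5.57 and 5.59 with GFP and 6.48, 6.68, 6.74 and 6.73 with Myb in KY-1. In KY-2 it went from 8.41 and 8.38 to 6.27, 6.55 and 6.73. The vectors were apart in both lines, and the Myb arrays of both lines overlapped. The interaction was -2.93 ± 0.18 (SE, limma adjusted p = 2.19e-05). Zbtb32, a transcription factor of proliferating NK cells, met in the same way, from 5.65 and 7.03 with GFP to 6.38 and 6.41 with Myb in KY-1 and KY-2 (interaction -1.34 ± 0.13).

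Cd7, a lymphocyte surface protein, also narrowed, from 10.49 and 11.76 to 11.11 and 11.31 (interaction -1.07 ± 0.14). So did the chemokine gene Ccl5, from 8.19 and 11.30 to 9.19 and 10.44 (interaction -1.86 ± 0.25). Castor2, a gene of the mTORC1 pathway, narrowed from 6.18 and 7.73 to 6.80 and 7.23 (interaction -1.12 ± 0.16). A second Castor2 probe set gave -0.49. Clec2i, a lectin-like ligand of NK receptors, started far lower in KY-2 and rose there by 1.26 while it fell by 0.51 in KY-1 (interaction 1.77 ± 0.14). In the other 3 genes the lines moved apart. Fads2, a fatty acid desaturase, went further up in KY-2, from 8.20 to 8.96, and down in KY-1, from 5.39 to 4.90. Myh10, a non-muscle myosin, went from 7.84 to 8.32 in KY-1 and from 6.08 to 5.54 in KY-2. Igf1, a growth factor, crossed at low levels, from 4.58 to 5.69 in KY-1 and from 5.06 to 4.69 in KY-2.

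A like start, with both GFP levels at least 6 and less than 0.5 apart, held for 11 of the 168 genes, among 6279 genes with such a start (0.175%, below the 0.843% of all genes). For these genes a starting gap of 0.5 or more was absent. The count was 68 of 427 with no arrays averaged, 72 of 293 among brighter genes, 66 of 362 with trended moderation and 0 of 29 beyond 1.5-fold. It was 6 on leaving out any 1 of 4 replicates: the averaged KY-1 GFP pair, KY-1 GFP replicate 3, the averaged KY-1 Myb pair or KY-2 Myb replicate 2. It was 7 without KY-2 GFP replicate 1, 3 with a bound of 7 and 31 with a gap of up to 1.

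Mgst2, a microsomal enzyme of leukotriene and glutathione metabolism, had the largest positive interaction among them. It read 6.22, 6.50 and 5.90 with GFP and 7.12, 7.18, 7.18 and 7.15 with Myb in KY-1, and 6.28 and 6.53 with GFP and 8.73, 8.72 and 8.75 with Myb in KY-2. It rose in both lines, further in KY-2 (interaction 1.30 ± 0.18, SE, limma adjusted p = 0.00483). Klrb1f, an NK receptor of the NKR-P1 family, fell in KY-1 from 8.78, 8.66 and 8.70 to 8.08, 7.89, 8.12 and 8.15. In KY-2 it read 9.01 and 8.98 with GFP and 9.27, 9.27 and 9.34 with Myb, apart but not called (limma adjusted p = 0.129; interaction 0.98 ± 0.12, limma adjusted p = 0.00309). Probe sets of the Klrb1 genes may read more than 1 member.

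Asb2, part of a ubiquitin ligase, gave the largest negative interaction with a like start. In KY-1 it read 9.02, 9.03 and 9.13 with GFP and 9.07, 8.91, 8.85 and 8.86 with Myb, which overlapped. In KY-2 it fell from 9.31 and 9.07 to 7.81, 7.62 and 7.98 (interaction -1.25 ± 0.17, limma adjusted p = 0.00485). Tnp2, a sperm nuclear protein gene, rose in KY-1 from 6.04 ± 0.10 to 7.41 ± 0.14 (SD, n = 2 and 3) and read 6.07 to 6.32 on the KY-2 arrays (interaction -1.24 ± 0.14). Akr1c13, an aldo-keto reductase with close relatives, fell in KY-1 (interaction 0.96 ± 0.13), and Tns3, a focal adhesion protein, rose in KY-2 (interaction 0.82 ± 0.12). Smad1, a BMP signalling factor, Cpne2, Pxmp2, Trav14-1 and Arnt2 (named after its value was seen) had interactions of 0.68, 0.62, -0.67, -0.88 and 0.60. Another Trav14-1 probe set gave 0.13.

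The promoters of the 2 highest and 2 lowest interactions with a like start are shown, since their responses differed although the lines started within 0.5 of each other. They are RefSeq sequences of GRCm38.p6, 250 bases before to 50 after the start, 5′ to 3′ on the gene's strand. Capitals mark the 4 Myb motifs of 6 bases searched on both strands, which were the motif TAACGG, the motif TAACTG, the motif CAACGG and the motif CAACTG. All hold the core AACNG.
Mgst2, chr3:51660929-51661228, plus strand: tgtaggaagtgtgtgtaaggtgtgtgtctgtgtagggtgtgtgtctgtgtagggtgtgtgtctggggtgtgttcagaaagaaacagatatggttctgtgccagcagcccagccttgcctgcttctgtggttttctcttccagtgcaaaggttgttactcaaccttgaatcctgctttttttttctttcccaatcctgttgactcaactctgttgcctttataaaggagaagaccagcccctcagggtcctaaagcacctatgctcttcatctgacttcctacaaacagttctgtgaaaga
Klrb1f, chr6:129045651-129045950, plus strand: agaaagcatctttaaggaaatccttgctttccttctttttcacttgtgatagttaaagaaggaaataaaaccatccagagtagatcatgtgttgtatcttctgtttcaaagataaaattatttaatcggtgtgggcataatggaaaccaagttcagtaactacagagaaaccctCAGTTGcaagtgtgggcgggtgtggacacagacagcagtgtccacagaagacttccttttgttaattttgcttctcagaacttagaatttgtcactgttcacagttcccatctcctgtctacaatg
Asb2, the first of 2 listed starts, chr12:103355952-103356251, minus strand: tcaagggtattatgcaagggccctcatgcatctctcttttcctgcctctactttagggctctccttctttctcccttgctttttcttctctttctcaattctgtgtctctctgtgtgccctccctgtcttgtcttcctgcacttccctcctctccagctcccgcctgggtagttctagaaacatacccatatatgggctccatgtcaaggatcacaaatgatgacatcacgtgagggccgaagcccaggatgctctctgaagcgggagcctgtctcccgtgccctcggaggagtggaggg
Tnp2, chr16:10788606-10788905, minus strand: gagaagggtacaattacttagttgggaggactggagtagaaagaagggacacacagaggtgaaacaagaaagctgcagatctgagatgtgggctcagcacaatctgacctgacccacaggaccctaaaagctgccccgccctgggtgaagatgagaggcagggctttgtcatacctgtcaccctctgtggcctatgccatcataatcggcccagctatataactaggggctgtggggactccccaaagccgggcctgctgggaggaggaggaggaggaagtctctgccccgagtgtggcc
The Klrb1f window holds 1 such motif, CAACTG on the other strand at base -76 from the start, and the 3 other windows hold 0. Over the 138 genes with a called interaction that have a listed promoter, 31 (22.5%) hold at least 1 of the 4 motifs, against 26.1% of the promoters of all 15614 listed genes tested. The core AACNG, which the 4 motifs overlap, is in 75.4% and 78.9%. A match is a description of letters and shows no binding.

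The genes were then read by 28 lists of NK cell functions, pathways and cell types, which held 565 distinct tested genes, 42 of them with a called interaction. Over all genes 0.843% were called, 0.461% above and 0.381% below 0, against which each list's count is to be read. Among all genes that differed between the lines with GFP, 2.45% were called. The lists were written with earlier results of these data known, so their shares only describe and carry no test. Among NK receptors and adaptors 7 of 32 members were called (21.9%), 3 above and 4 below 0, with a median of -0.10 over the list. Beside Ncr1, Sh2d1a and Klrb1f above 0 and Klrh1, Crtam and Cd7 below 0, the checkpoint receptor Tigit fell in KY-2, from 9.54 to 9.06, and read 6.25 and 6.50 in KY-1 (interaction -0.74 ± 0.14), the 1 call among 21 checkpoint and costimulatory receptors. Of the 32, 26 differed between the lines with GFP, a larger share than the 28.9% of all genes. Klrk1, which encodes NKG2D, had an interaction of 0.03 ± 0.13 and Klrb1c, or NK1.1, of 0.36 ± 0.10, and neither interaction was called (limma adjusted p = 0.965 and 0.201).

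Of 24 cytotoxic effectors 7 were called (29.2%, against 0.843% of all genes), 6 of them below 0 (0.381% of all genes), with a median of -0.24 (-0.23 after quantile normalization and -0.27 after centring). Of the 24, 14 differed between the lines with GFP. Perforin, the pore-forming protein gene Prf1, read 8.24, 8.21 and 8.12 with GFP and 8.40, 8.41, 8.22 and 8.31 with Myb in KY-1. In KY-2 it fell from 10.49 and 10.37 to 9.50, 9.65 and 9.69. The KY-2 level stayed above KY-1 throughout, and the KY-1 vectors overlapped (interaction -1.0 ± 0.13, SE, limma adjusted p = 0.00319). Serpinb9b, a granzyme inhibitor, fell in KY-2 from 8.13 to 7.28 (interaction -1.11 ± 0.14), and the granzyme Gzmf from 5.77 to 4.79 (-1.27 ± 0.19). Gzmg and Gzma rose in KY-1, by 1.19 and 0.54, with interactions of -1.66 ± 0.22 and -0.70 ± 0.11. Tnf, the tumour necrosis factor gene, named after its value was seen, was the member above 0, at 0.62. Gzmb, among the brightest genes with 12.24 and 12.34 with GFP in KY-1 and KY-2, had an interaction nearer to 0 than its SE of 0.11 (limma adjusted p = 0.996). The probe sets of Gzmd, Gzmf and Gzmg may cross-read, since these genes are near copies.

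The 14 chemokine genes had 3 calls (21.4%, against 0.843% of all genes), all below 0, with a median of -0.01. Beside Ccl5, Ccl4 fell in both lines, by 1.02 in KY-1 and by 1.77 in KY-2, and Ccl1 fell in KY-2 from 7.22 to 6.10, where KY-1 started at 4.87 (interactions -0.75 ± 0.14 and -0.93 ± 0.18). The Ccl4 call was lost in 10 and the Ccl1 call in 11 of the alternative settings. Of 17 chemokine and S1P receptors Cxcr4 was above and Cxcr3 below 0. Of 23 cytokines Igf1 was below 0 and Il10, an inhibitory cytokine, above it by 0.90 at levels under 5. Il17ra was the 1 call among 24 cytokine receptors (0.68), and limma called 0 of 18 JAK-STAT genes (4 at an unadjusted p under 0.05).

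NK lineage transcription factors had 3 calls of 26 (11.5%, against 0.843% of all genes). Ikzf2, or Helios, rose in KY-2 from 6.05 and 6.03 to 6.83, 6.95 and 6.71 and read 4.88 to 5.24 on the KY-1 arrays (interaction 0.84 ± 0.13). Rora, a factor of innate lymphoid cells, rose in KY-2 from 6.01 to 6.53 and went from 7.78 to 7.47 in KY-1 without a call there (0.83 ± 0.13). Zbtb32 is given above. Eomes and Tbx21, which direct NK maturation, had interactions of 0.22 ± 0.15 and -0.15 ± 0.16 and were not called. Among 27 immediate early genes, which answer receptor signals within minutes, Egr1 was called: it fell in KY-2 from 6.91 to 6.09 and read 5.24 to 5.68 on the KY-1 arrays (interaction -1.04 ± 0.15). Of 21 integrin and adhesion genes Itgax was below 0 and Spn, the sialomucin CD43, above it by 0.86, from a start of 6.07 in KY-2 and 9.32 in KY-1.

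In metabolism, 3 of 23 amino acid response and transport genes were called (13%): Nupr1, a stress-induced chromatin protein, at 0.93 ± 0.12, Gpt2, a mitochondrial transaminase, at 0.64 ± 0.13, and Castor2. The median of this list was 0.19, against 0.01 for all genes. Among lipid genes Cd36, Mgst2 and Alox5, the 5-lipoxygenase of leukotriene synthesis, were called of 23. Alox5 fell in KY-2 from 8.37 to 7.87 and read 4.44 with GFP in KY-1 (interaction -0.74 ± 0.12). Of 24 sterol and fatty acid synthesis genes Fads2 was called, and of 27 interferon-stimulated genes Ifitm1. Limma called 0 of 29 DNA replication, 0 of 28 mitosis, 0 of 25 ribosome biogenesis, 0 of 21 glycolysis and hypoxia and 0 of 19 p53 target genes. At an unadjusted p under 0.05 these lists held 0, 7, 0, 4 and 5 genes, where 2056 of all 19938 genes passed. Of 31 genes reported as Myb targets Cxcr4 was called, and of 23 reported for microRNA-15/16 Myb alone.

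**Figure D5:**
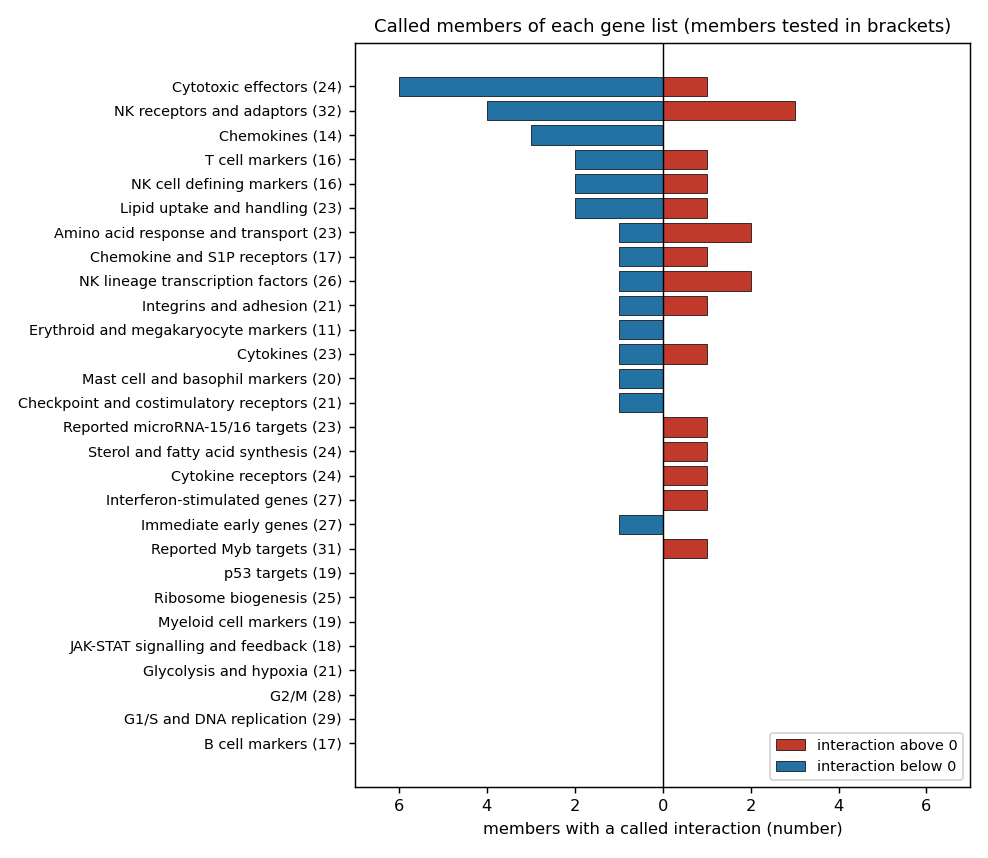
Bars count the members of each list with a called interaction above 0 (red, to the right) and below 0 (blue, to the left), and the number tested is in brackets. Cytotoxic effectors (7 of 24) and NK receptors and adaptors (7 of 32) had the most calls, and 8 lists had 0.

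Markers of other blood cells were mostly low in both lines. Of 16 T cell markers between 3 and 6 reached a level of 6, and their summed log2 level ran from 9.79 to 9.83 in KY-1 with GFP and 10.01 to 10.10 with Myb, and from 13.04 to 13.14 and 12.86 to 12.93 in KY-2. The called members were Cd3g and Cd3d (interaction -0.84 ± 0.15), CD3 chains, and Lat, a signalling adaptor (0.67 ± 0.12). Lef1, a transcription factor of T cells and other lymphocytes, had means of 8.66 to 8.92 over the groups, and the CD3 chain Cd3e had 6.22 in KY-1 with GFP and less in the other groups. Cd5 (at most 4.81) and Themis (at most 3.83) were low in every group, while Cd8a and Cd28 were high in KY-2 with both vectors, with GFP arrays at 11.12 and 10.87 for Cd8a and 9.49 and 9.47 for Cd28. Mcpt8 was the 1 call among 20 mast cell and basophil markers. Of these 20, 2 or 3 reached a level of 6 in each group. Kit, the stem cell factor receptor, had means of 10.39 and 10.30 in KY-1 and 8.07 and 7.87 in KY-2 with GFP and Myb, and Srgn, a granule proteoglycan that killer cells also make, had 10.76 to 11.42. The mast cell genes Ms4a2, Fcer1a and Cma1 lay under 4 in every group, and Cpa3 rose in KY-1 from 4.86 to 5.96 with an interaction of -0.53 (limma adjusted p = 0.593). Of 17 B cell markers 1 or 2 reached a level of 6 in each group, and their summed log2 level ran from 9.94 to 10.56. Bank1 had means of 9.22 to 9.78 over the groups, and Cd72 had 7.57 and 6.97 in KY-1 with GFP and Myb. Of 19 myeloid markers 1 or 2 reached a level of 6. Cd68 had means of 6.54 to 6.77 over the groups, and Fcgr1 had 7.28 and 7.12 in KY-1 with GFP and Myb. Plek was the 1 call among 11 erythroid and megakaryocyte markers, and limma called 0 of 17 B cell and 0 of 19 myeloid markers, with 0 and 3 at an unadjusted p under 0.05. The part of other cells in these calls was not tested.

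The sign of each of the 63 named genes held in every setting that included the gene. Of the 63, 43 kept their call on leaving out each replicate in turn. The other 20 lost the call, not the direction, without at least 1 replicate. Gzmf and Spn lost it without KY-2 GFP replicate 1, Cxcr4 without KY-2 GFP replicate 2, and Gzma without KY-2 GFP replicate 1 or KY-1 GFP replicate 3. Ikzf2 lost it without any 1 of 3 GFP replicates, Rora without any 1 of the 4, and Alox5 in 5 of the 10 leave-outs. Smad1, Cpne2, Trav14-1, Pxmp2, Ccl4, Ccl1, Cxcr3, Il10, Il17ra, Tigit, Gpt2, Cd3d and Lat lost it in 7 to 9 of the 10.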

How the data were processed

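The 12 Affymetrix arrays were assigned to 4 groups by their titles. The deposited values are log2 levels per probe set, processed by the authors with RMA and Partek, per the submitters' processing notes. For versions, filters and build, nothing is given in the sources used here. Of 35556 probe sets, 21789 had 1 gene in the platform annotation, 1621 several and 12146 were not listed there. The brightest probe set stood for each of 999 genes with several, which left 19938 genes.

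Close pairs of KY-1 arrays were averaged. Means of 4 groups were fitted with limma 3.58.1 (lmFit, contrasts.fit, eBayes) in R 4.3.3, with 6 residual degrees of freedom, and p-values were adjusted by Benjamini-Hochberg over all genes at 0.05. Figures were drawn with matplotlib 3.10.9. Tested on simulated data, in which 200 of 19938 genes had an interaction, the fit recovered 77% of those of 1 log2 and 100% of those of 2, and 13 of its 190 calls were unchanged genes.

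Members and lists were chosen with earlier results of these data known, and the margins around the starting level after the values were seen. Named genes were Myb, the 12 highest and 12 lowest called interactions (without predicted, small RNA, olfactory and vomeronasal genes), up to 6 per direction with a like start, those called in opposite directions, and up to 5 per list by p. Klrk1, Klrb1c, Gzmb, Eomes, Tbx21, Cd8a, Cd28, Cpa3, Kit, Srgn, Lef1, Cd3e, Cd5, Themis, Ms4a2, Fcer1a and Cma1 were added after their values were seen. So were Bank1, Cd72, Cd68 and Fcgr1. Alternatives were all arrays as separate replicates, a replicate block, a filter on dim genes, quantile normalization, centring, the mean of probe sets, trended or robust moderation, array weights, a minimum fold, other bounds of a like start, and leaving out each replicate. Arrays give no counts, so their number limits the precision.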

Additional observations from a re-analysis of the deposited data

Results flagged for a closer look

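The effect of Myb differed between the lines, by the limma test of the interaction itself, for 168 genes. Among the named genes with a more positive change in KY-2, the log2 interaction was Ambn 3.31, Myb 3.11, Tuba8 2.72, Tacr1 2.47, Kap 2.42, Adgrg3 2.05, Prl2c5 1.97 and Emp3 1.96 in the highest ones. It was Clec12a 1.94, Ncr1 1.86, Sh2d1a 1.84, Clec2i 1.77, Ifitm1 1.45, Mgst2 1.30, Fads2 1.25 and Cxcr4 1.07 in the next ones. Lower values above 0 were Klrb1f 0.98, Akr1c13 0.96, Nupr1 0.93, Il10 0.90, Spn 0.86, Ikzf2 0.84, Rora 0.83 and Tns3 0.82. The lowest above 0 were Smad1 0.68, Il17ra 0.68, Lat 0.67, Gpt2 0.64 and Cpne2 0.62.

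Among those with a more negative change in KY-2, the log2 interaction was Csn3 -2.93, Tmem273 -2.74, Cd3g -2.63, Klrh1 -2.45, Cd36 -2.28, Itgax -2.21, Gpr174 -2.02 and Crtam -1.99 at the low end. Next came Mcpt8 -1.93, Ccl5 -1.86, Nt5e -1.82, Plek -1.73, Gzmg -1.66, Igf1 -1.48, Gzmd -1.35 and Zbtb32 -1.34. Values closer to 0 were Gzmf -1.27, Asb2 -1.25, Tnp2 -1.24, Castor2 -1.12, Serpinb9b -1.11, Cd7 -1.07, Egr1 -1.04 and Myh10 -1.01. Closer still were Prf1 -1.0, Ccl1 -0.93, Trav14-1 -0.88, Cd3d -0.84, Cxcr3 -0.82, Ccl4 -0.75, Tigit -0.74 and Alox5 -0.74. The closest were Gzma -0.70 and Pxmp2 -0.67. Groups held 2 or 3 replicates, too few to test for a replicate that stands apart. No explanation was weighed.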

How the results depend on the processing

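Each named gene kept its direction in every setting that included it, and 24 of the 63 kept their call in each of these. The setting of genes with a mean above 6 left out dimmer ones such as Ambn, and 44 of the 63 kept their call there. With all 12 arrays as separate replicates 427 genes were called (218 higher, 209 lower), which include all 168, with 68 of a like start, 219 called in KY-2 only, 128 in KY-1 only, 202 with a GFP gap of at least 1 and 250 where the other line was already at or past the end. The filter on a mean above 6 gave 293 calls, of which 100 were among the 168. The counts there were 293 (140 higher, 153 lower), 72, 152, 83 and, past the end, 176. With an intensity trend they were 362 (185, 177), 66, 199, 92, 188 and 215, with 69 list members in place of 42. Beyond 1.5-fold (treat) they were 29 (16, 13), 0, 21, 5, 20 and 15, with 12 list members. With a bound of 7 a like start held for 3 genes, and with a gap of up to 1 for 31.

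Leaving out 1 replicate gave 88 to 142 calls (50 to 79 higher, 38 to 63 lower), 6 to 9 of a like start, 52 to 84 in KY-2 only, 22 to 38 in KY-1 only, 56 to 87 with a gap of at least 1, 49 to 90 past the end, 28 to 36 list members and 3.06 to 3.16 for Myb. The fewest calls came without KY-2 GFP replicate 1. Without KY-1 GFP replicate 3 there were 109, and without the averaged KY-1 GFP pair 112, of which 61 were higher, 25 in KY-1 only and 67 with a gap of at least 1.

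Deviations of samples of the same number had correlations of -0.47 to 0.12, and the numbers were not taken to pair them. With 2 to 4 arrays in a group the deviations are bound to each other, so these correlations cannot settle whether samples were paired. With the replicate block on all arrays 186 genes were called, 148 of them among the 168. Quantile normalization gave 188, centring 175, the mean of probe sets 167, robust moderation 164 and array weights 187. The causes of these shifts were not tested. Values under 6 carry no detection call, which limits sizes at the low end.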

Other observations

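In the same fit over all 35556 probe sets, 93 had a called interaction. Of these, 9 are not listed in the platform annotation used here and 1 has several genes. These are not named here.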
